A study of Mus musculus with 6 samples.

Results

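Eukaryotic translation initiation factors are described here through 45 mouse genes, of 16277 genes measured in the series. They are the genes whose current symbol begins with Eif and a digit, without the eIF2 kinase genes (Eif2ak) and the sex-linked genes for the gamma subunit of eIF2 (Eif2s3x and Eif2s3y). All 657 probe sets that the annotation gives to 1 of these genes were used. The 4 Argonaute genes that the annotation still lists under older Eif2c symbols are not initiation factors and were left out with their 88 probe sets, and 5 probe sets shared with a second gene (2 of Eif4ebp3 and 3 of Eif5a) were left out as well. Eif1, Eif2b3, Eif3j2 and Eif4e1b were not analysed here. Liver RNA of untreated mice aged 1 month was hybridised to 6 Affymetrix mouse exon arrays, 3 of SRSF3HKO mice and 3 of WT mice. SRSF3HKO mice lack the SR-family splicing factor SRSF3 in hepatocytes, and the WT mice are described as littermates matched for age. The promoter that drives the deletion and the deleted exons are not given in the sources used here, and cells other than hepatocytes are not targeted by the design. The comparison asks which liver transcripts differ when hepatocytes lack SRSF3.

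Initiation begins when eIF2, bound to GTP and the initiator tRNA, joins the small ribosomal subunit as the ternary complex. The multi-subunit factor eIF3 scaffolds this assembly, while eIF4F, made of the cap-binding protein eIF4E, the scaffold eIF4G and the helicase eIF4A, brings the mRNA. The exchange factor eIF2B recharges eIF2 with GTP and is inhibited by phosphorylated eIF2, and the 4E-binding proteins block eIF4E when the kinase mTOR is inactive. Liver secretes most plasma proteins and depends on a high rate of protein synthesis.

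The arrays had similar median intensities, 75.3 to 89.6, and the number of arrays limits the precision of every comparison. The labels speak of 3 SRSF3HKO mice but do not state how many WT mice were used, and the p-values therefore cover only the variation among these 6 samples, which may in part be technical. At gene level Srsf3 itself changed by 0.26 ± 0.31 on the log2 scale (limma adjusted p = 0.625), with 6 of its 13 tested probe sets higher and none lower after adjustment, so the gene level does not check the labels. Y-linked signal (Eif2s3y and Kdm5d) was present on WT replicates 1 and 2 and SRSF3HKO replicate 3, with mean log2 levels of 7.25 to 7.77, against 4.22 to 4.42 on the other 3 arrays. SRSF3HKO replicate 1 stood apart in the 9 macrophage markers, all of them above the detection floor, whose summed intensity was 21600 on this array, 3520 and 4060 on the other SRSF3HKO arrays and 3040 to 3430 on the WT arrays. One of these 9 markers, Marco, was called higher. The 12 measured hepatocyte markers, among them Alb, Apoa1 and Ttr, summed to 127000 to 131000 in WT and 109000 to 123000 in SRSF3HKO, with 1, Fga, called lower. Other marker genes also moved with the genotype. Of 4 tested erythroid markers Alas2 fell by 2.35 and Tfrc rose by 1.36 on the log2 scale (limma adjusted p = 0.0228 and 0.0163), and the summed intensity of the list was 10900, 9810 and 3300 in WT and 10400, 1990 and 1150 in SRSF3HKO. Of 8 endothelial markers Kdr fell by 0.87 (limma adjusted p = 0.0452), with sums of 2910 to 4110 in WT and 1680 to 3730 in SRSF3HKO, and of 9 stellate cell markers Col3a1 fell by 1.41 (limma adjusted p = 0.0434), with sums of 3510 to 4330 and 3660 to 6430. The brightest stellate cell marker, Dcn, changed the other way, by 0.76 ± 0.24 (limma adjusted p = 0.0724). Its levels were 11.01 to 11.46 in WT and 11.51 to 12.23 in SRSF3HKO, and the median change of the list was -0.15. None of the tested cholangiocyte, neutrophil and lymphocyte markers (5, 3 and 5 genes) was called in limma, and the cholangiocyte sum was 2990 on SRSF3HKO replicate 1, 838 and 1100 on the other SRSF3HKO arrays and 497 to 710 in WT. This sum was carried by Spp1, with a log2 level of 11.41 on SRSF3HKO replicate 1, where the next highest marker of the list, Epcam, had 7.05. Krt19 had 5.70 on that array and 5.69 to 8.03 in WT. The part of these marker genes in the results below was not tested.

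Of the 44 initiation factor genes tested, 9 rose in SRSF3HKO liver, by 1.59-fold to 2.27-fold, and none fell, at an adjusted p under 0.05 in limma's moderated test over all 11711 genes tested. The members that rose were Eif6, Eif4ebp3, Eif1ad, Eif1a, Eif1ax, Eif2b2, Eif2s1, Eif3e and Eif4a1, 20.5% of those tested, where 6.85% of all tested genes were called higher and 5.03% lower. At an unadjusted p under 0.05, 16 members passed (36.4%), 1 of them lower, beside 3400 of all tested genes (29%), 1339 of them lower. The log2 change was positive for 41 of the 44 members (93.2%), against 57.4% of all tested genes, and for 40 with quantile normalization and 38 with median centring of the arrays. The median log2 change was 0.38 over the members and 0.08 over all tested genes. The 3 SRSF3HKO arrays lay above the 3 WT arrays for 20 members (45.5%) and below them for 2, where the shares among all tested genes were 21.6% and 14%. Tested genes were those with a mean above the detection floor of 5.35, the 90th percentile of sensory receptor genes, which liver should not express, on the log2(intensity + 16) scale, on which every level and change below is given. With the filter raised to the median of all genes, 11 of 43 members were called higher, beside 9.95% of 8138 genes. Fewer cells of a type and less RNA per cell cannot be told apart in bulk tissue.

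The count of 9 rested on all arrays being kept. It was 0 without WT replicate 1, 0 without WT replicate 2, 1 without WT replicate 3, 2 without SRSF3HKO replicate 1, 19 without SRSF3HKO replicate 2 and 2 without SRSF3HKO replicate 3. Over all genes the share called higher moved in the same fits to 0.976%, 0.895%, 1.9%, 4.96%, 11.8% and 4.64%. A fit that added the Y-linked level as a covariate called 1 member, Eif6, and 3.31% of all genes higher. No member was called lower in any of these 7 fits, and their median log2 change stayed between 0.33 and 0.45 on leaving out arrays. Without SRSF3HKO replicate 1, the array with the high macrophage markers, the median was 0.35, and Eif6 and Eif1ad were the 2 members called.

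**Figure D1:**
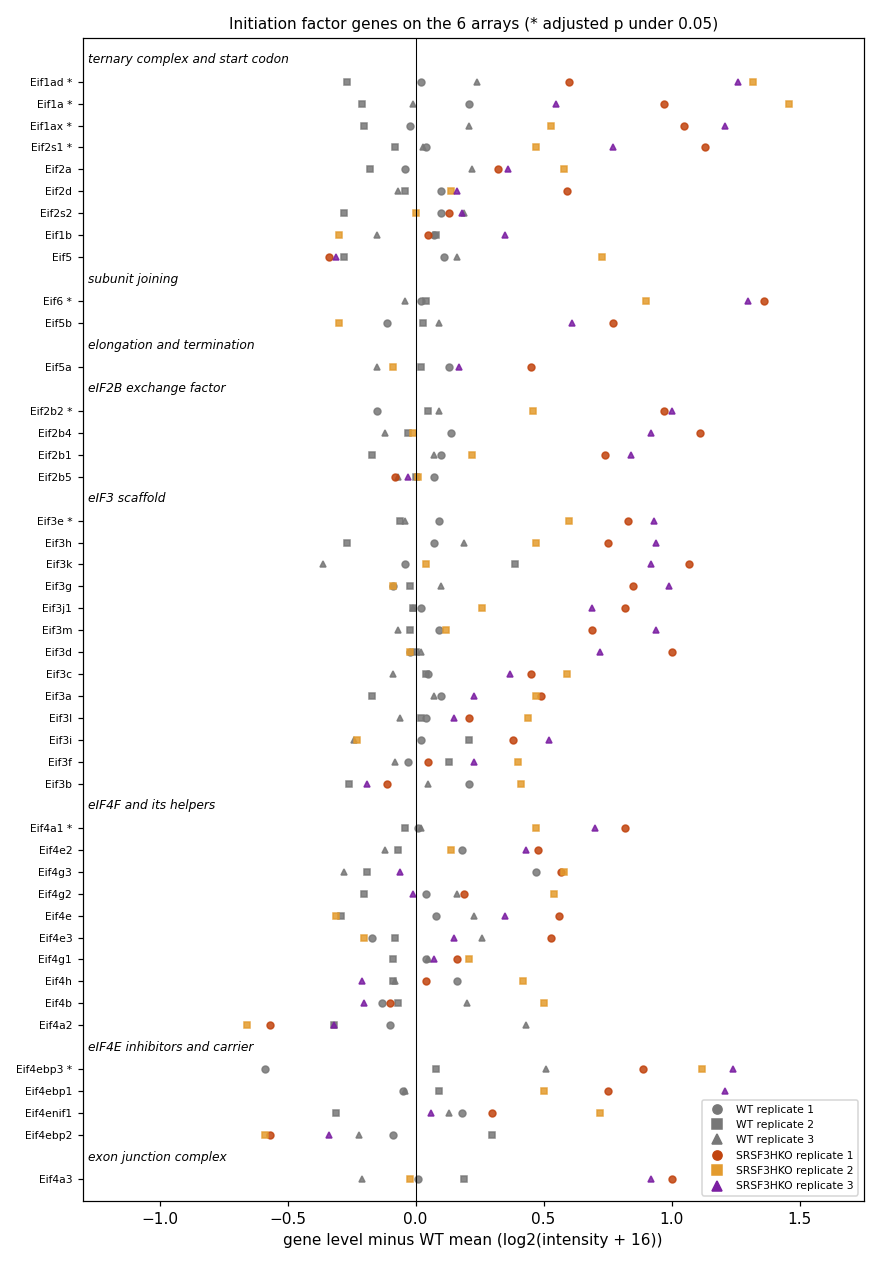
Each row is 1 of the 44 tested members, ordered by role, and each point is the level on 1 array minus the mean of the 3 WT arrays, on the log2(intensity + 16) scale; grey points are WT and coloured points SRSF3HKO, with a marker shape for each replicate. Stars mark the 9 members called higher, and 41 of the 44 rows have a positive mean shift, 38 with median centring.

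In the role group for carrying the initiator tRNA and selecting the start codon, 4 of 9 members rose and none fell. Eif1ad, 1 of these 4, was counted in the group, but no part of its product in these steps was shown here. All 9 log2 changes were positive, where 57.4% of those of all tested genes were, and their median was 0.42. Those of Eif5 and Eif1b turned negative with median centring, and that of Eif1b with quantile normalization as well. Eif2s1 codes for the alpha subunit of eIF2, whose phosphorylation halts most initiation. Its levels were 9.81, 9.69 and 9.80 on the WT arrays and 10.90, 10.24 and 10.54 on the SRSF3HKO arrays, which did not overlap. The log2 change was 0.79 ± 0.21 (SE), a 1.73-fold rise (limma adjusted p = 0.0452, 0.0517 with median centring, 0.059 with no filter, and 0.010 to 0.155 on leaving out 1 array at a time). Eif2s2, which codes for the beta subunit of eIF2, had 8.87, 8.49 and 8.96 in WT and 8.90, 8.77 and 8.95 in SRSF3HKO. Its 2 probe sets gave a log2 change of 0.10 ± 0.20 (limma adjusted p = 0.779), which turned to -0.04 without WT replicate 2, and the WT and SRSF3HKO arrays overlapped.

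The eIF1A factors, which bind the small subunit and promote scanning, are encoded by Eif1ax on chromosome X and the close copy Eif1a on chromosome 18. Eif1ax had WT levels of 9.03, 8.85 and 9.26 and SRSF3HKO levels of 10.10, 9.58 and 10.26. All 3 SRSF3HKO arrays were higher than any WT array, for a log2 change of 0.93 ± 0.23 (limma adjusted p = 0.0390, 0.0506 with no filter, and 0.00724 to 0.147 on leaving out 1 array at a time). Eif1a had 7.89, 7.47 and 7.67 in WT and 8.65, 9.14 and 8.23 in SRSF3HKO. Its log2 change was 1.00 ± 0.26 (limma adjusted p = 0.0453, 0.0574 with no filter, and 0.0314 to 0.163 on leaving out 1 array at a time), with SRSF3HKO replicate 2 highest, whereas for Eif1ax that array was the lowest of the 3. Whether single probe sets read both of these close copies was not tested. Eif1ad, whose product shares a domain with eIF1A, had 7.98, 7.69 and 8.20 in WT and 8.56, 9.28 and 9.22 in SRSF3HKO. The rise was 1.06 ± 0.25, or 2.09-fold (limma adjusted p = 0.0345, and 0.0162 to 0.136 on leaving out 1 array at a time).

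The other members of this group did not pass the test. Eif5 codes for the GTPase activator of eIF2 and had WT levels of 10.29, 9.90 and 10.34 and SRSF3HKO levels of 9.84, 10.91 and 9.87. SRSF3HKO replicate 2 alone exceeded the WT arrays, and the log2 change of 0.03 ± 0.31 was -0.02 with median centring and -0.32 without that array. With the mean over probe sets the change of Eif5 was 0.29 and with median polish 0.28, and 19 of its 22 tested probe sets had a positive change. Eif2a and Eif2d, which code for factors that can deliver the initiator tRNA without eIF2, changed by 0.42 ± 0.19 and 0.30 ± 0.20 (limma adjusted p = 0.191 and 0.365), both with SRSF3HKO arrays above all WT arrays. Eif1b, a paralog of the start codon fidelity factor gene Eif1, changed by 0.03 ± 0.22, which was -0.02 with median centring and -0.04 with quantile normalization.

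Promoter sequence from RefSeq (GRCm38.p6) was available for 36 of the 45 members and 5 of the 9 that rose. The 250 bases before the annotated start are shown for 3 of the risen genes because each holds a different one of the 6 motifs searched, and capitals mark the matches, read 5′ to 3′ on the gene's strand. Eif4a1 (chr11:69672424-69672673, minus strand) holds an E-box, CACGTG. Eif2s1 (chr12:78861822-78862071, plus strand) holds the Nrf1 core as GCATGCGC, 22 bases before the start, and the TATA box core TATAAA, 157 bases before it. Eif1ad (chr19:5366563-5366812, plus strand) holds the ETS core as CTTCCGG.
Eif4a1: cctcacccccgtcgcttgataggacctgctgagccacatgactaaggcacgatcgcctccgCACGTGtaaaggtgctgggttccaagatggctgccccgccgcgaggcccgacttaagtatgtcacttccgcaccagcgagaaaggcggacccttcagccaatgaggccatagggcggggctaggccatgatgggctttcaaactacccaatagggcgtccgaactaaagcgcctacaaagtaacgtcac
Eif2s1: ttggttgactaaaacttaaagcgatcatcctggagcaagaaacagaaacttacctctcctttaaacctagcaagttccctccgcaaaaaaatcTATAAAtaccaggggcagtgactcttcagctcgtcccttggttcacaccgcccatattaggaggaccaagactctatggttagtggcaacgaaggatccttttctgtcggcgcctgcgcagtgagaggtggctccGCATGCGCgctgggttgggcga
Eif1ad: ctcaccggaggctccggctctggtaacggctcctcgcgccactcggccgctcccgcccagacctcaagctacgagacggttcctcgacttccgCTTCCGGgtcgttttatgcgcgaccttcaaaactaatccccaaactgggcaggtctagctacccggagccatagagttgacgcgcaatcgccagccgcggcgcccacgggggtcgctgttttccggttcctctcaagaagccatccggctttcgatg

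The E-box CACGTG was present in the promoters of 9 of the 36 members (25%) and 6.86% of 27025 genes, and the ETS core, CCGGAAG or its complement CTTCCGG, in 12 members (33.3%) and 7.83% of genes. The Nrf1 core, GCGCATGC or GCATGCGC, was found in 3 members (8.33%) and 2.56% of genes, and TATAAA or TTTATA in 3 members (8.33%) and 14.3% of genes. The C/EBP-ATF response element core, TGATGNAA or TTNCATCA, and the YY1 core, AAGATGGCG or CGCCATCTT, were in none of these members' windows and in 3.91% and 0.71% of genes. Both strands were searched. The 27025 genes are all those with a promoter sequence, not only those tested on the arrays, and they were not matched to the members by level. Tested members had a median level of 9.28, against 7.26 over all tested genes. Among the 5 risen genes with a promoter, the ETS core was in Eif1ad and Eif1ax, the E-box in Eif4a1, the Nrf1 and TATA cores in Eif2s1, and none of the 6 motifs in Eif2b2. These are matches of letters and no binding was measured.

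Eif6 was the member with the largest change and the lowest p. Its product binds the large ribosomal subunit and keeps it from joining the small one too early. Eif6 levels were 9.33, 9.35 and 9.27 on the WT arrays and 10.67, 10.21 and 10.61 on the SRSF3HKO arrays. The gap between the groups was wider than the spread within either, with a log2 change of 1.18 ± 0.19, or 2.27-fold (limma adjusted p = 0.00958). Within the arrays with Y-linked signal the change was 1.27 and within those without it 1.17, each from 1 array against 2. These 2 changes were also near each other for Eif2s1 (0.79 and 0.77), Eif4a1 (0.72 and 0.63) and Eif3e (0.92 and 0.75). They lay further apart for Eif4ebp3 (1.49 and 0.50), Eif1ax (1.32 and 0.57), Eif1a (0.55 and 1.23), Eif1ad (1.38 and 0.72) and Eif2b2 (1.05 and 0.62). The adjusted p of Eif6 ranged from 0.00247 to 0.0589 on leaving out 1 array at a time, with the call ended without WT replicate 1 (0.0589) or WT replicate 2 (0.0546). Eif5b, which codes for the GTPase of subunit joining, had 8.42, 8.56 and 8.62 in WT and 9.30, 8.23 and 9.14 in SRSF3HKO, and the low SRSF3HKO replicate 2 left a log2 change of 0.36 ± 0.29 (limma adjusted p = 0.459). Eif5a, which codes for a factor modified with hypusine that acts in elongation and termination, changed by 0.18 ± 0.20 (limma adjusted p = 0.602). Its paralog Eif5a2 was the 1 member below the detection floor in its mean, with WT levels of 4.92, 4.68 and 5.26 and SRSF3HKO levels of 5.38, 5.96 and 5.80, and it was not tested.

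Of the 4 measured subunits of eIF2B, 1 rose. Eif2b2, which codes for a regulatory subunit, had WT levels of 7.93, 8.13 and 8.17 and SRSF3HKO levels of 9.05, 8.54 and 9.08. The groups did not overlap, and the log2 change was 0.81 ± 0.22 (limma adjusted p = 0.0457, and 0.00882 to 0.179 on leaving out 1 array at a time). The call of Eif2b2 also ended with quantile normalization (0.067), median centring (0.0606), the mean over probe sets (0.0919, with a log2 change of 0.54), median polish (0.0767) and no filter on dim genes (0.0595). The other regulatory subunits Eif2b1 and Eif2b4 had log2 changes of 0.60 ± 0.22 and 0.68 ± 0.30 (limma adjusted p = 0.119 and 0.177). Eif2b1 did not overlap between the groups, while SRSF3HKO replicate 2 lay within the WT range for Eif2b4, at 7.23 against 8.35 and 8.16 on the other SRSF3HKO arrays. Eif2b5 codes for the catalytic subunit and had 8.35, 8.28 and 8.21 in WT and 8.20, 8.29 and 8.25 in SRSF3HKO. All 6 arrays lay within a narrow range for Eif2b5, and its log2 change was -0.03 ± 0.17 (limma adjusted p = 0.923).

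All 13 measured eIF3 subunits had a positive log2 change, where 57.4% of all tested genes had one. The changes ran from 0.03 to 0.79 with a median of 0.56, although that of Eif3b turned to -0.02 with median centring. Eif3e, a subunit of the octameric core, rose from 9.32, 9.17 and 9.19 in WT to 10.06, 9.83 and 10.16 in SRSF3HKO. Its log2 change was 0.79 ± 0.18 (limma adjusted p = 0.0303, and 0.00955 to 0.113 on leaving out 1 array at a time). Another core subunit, Eif3h, had 10.36, 10.02 and 10.48 in WT and 11.04, 10.76 and 11.23 in SRSF3HKO, and its log2 change of 0.73 ± 0.21 missed the threshold (limma adjusted p = 0.0569). The SRSF3HKO arrays lay above the WT arrays for 7 of the 13 subunits, where they did so for 21.6% of all tested genes. These 7 were Eif3a, Eif3c, Eif3e, Eif3h, Eif3j1, Eif3l and Eif3m. For Eif3d, Eif3g, Eif3i and Eif3k, SRSF3HKO replicates 1 and 3 lay above every WT array and replicate 2 did not. Eif3d, for example, had 9.09, 9.11 and 9.13 in WT and 10.11, 9.09 and 9.83 in SRSF3HKO (log2 change 0.56 ± 0.27, limma adjusted p = 0.206). The subunit Eif3b differed little in the mean, at 10.27, 9.80 and 10.11 in WT and 9.95, 10.47 and 9.87 in SRSF3HKO.

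Within eIF4F, the 2 helicase genes had log2 changes of opposite sign. Eif4a1 had WT levels of 11.74, 11.69 and 11.75 and SRSF3HKO levels of 12.55, 12.20 and 12.43. It rose by 0.67 ± 0.16, or 1.59-fold (limma adjusted p = 0.0358, 0.0525 with median centring, and 0.0109 to 0.133 on leaving out 1 array at a time). Its paralog Eif4a2 had 9.80, 9.58 and 10.33 in WT and 9.33, 9.24 and 9.58 in SRSF3HKO. Its change of -0.52 ± 0.24 did not pass (limma adjusted p = 0.187), and WT replicate 2 and SRSF3HKO replicate 3 were equal to the digits shown. On leaving out 1 array at a time the change of Eif4a2 ranged from -0.68 to -0.31, the latter without WT replicate 3. It was -0.11 within the arrays with Y-linked signal and -1.04 within those without it. Eif4a1 minus Eif4a2 was 1.94, 2.11 and 1.42 in WT and 3.22, 2.97 and 2.85 in SRSF3HKO, which shifted the mean by 1.19. The size of this difference within an array depends on the probes, and the pair was chosen after its values were seen, so the shift was not tested. The cap-binding gene Eif4e and the scaffold genes Eif4g1, Eif4g2 and Eif4g3 changed by 0.19 ± 0.27, 0.15 ± 0.16, 0.24 ± 0.20 and 0.36 ± 0.28, with limma adjusted p-values of 0.682, 0.596, 0.481 and 0.434. Of these 4, the groups did not overlap for Eif4g1, at 10.43, 10.30 and 10.44 in WT and 10.55, 10.60 and 10.46 in SRSF3HKO, and the other 3 overlapped. In all, 1 of the 10 members of eIF4F and its helpers rose and none fell, with a median log2 change of 0.17.

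The 4E-binding proteins, which compete with eIF4G for eIF4E, had 1 of 3 genes called and log2 changes of both signs. Eif4ebp3 had WT levels of 7.00, 7.67 and 8.10 and SRSF3HKO levels of 8.48, 8.71 and 8.83. The change was 1.08 ± 0.29 on 4 tested probe sets (limma adjusted p = 0.0463), and its call ended on leaving out any 1 array (0.0529 to 0.148). It also ended with a pseudocount of 1 (0.0504), quantile normalization (0.0638), median centring (0.0606), the mean over probe sets (0.0926), median polish (0.0637) and no filter (0.0584). The WT arrays spread more widely than the SRSF3HKO arrays, with WT replicate 1 the lowest. Eif4ebp1 had 8.43, 8.57 and 8.44 in WT and 9.23, 8.98 and 9.69 in SRSF3HKO. All SRSF3HKO arrays were higher, and the log2 change of 0.82 ± 0.22 fell just outside the threshold (limma adjusted p = 0.0504). It fell inside with the mean over probe sets (0.0429), median polish (0.0431), no variance trend (0.0457), robust variances (0.0496) and array weights (0.0105). It stayed outside with quantile normalization (0.0786), median centring (0.0768), no filter (0.0655), the Y-linked covariate (0.0602) and pseudocounts of 1 (0.052) and 64 (0.0515). On leaving out 1 array at a time the limma adjusted p was 0.0132 to 0.173, under 0.05 in 1 of 6 fits. Eif4ebp2 had 8.72, 9.11 and 8.59 in WT and 8.24, 8.22 and 8.47 in SRSF3HKO, all lower than any WT array. Its log2 change was -0.49 ± 0.21 (limma adjusted p = 0.162). Eif4ebp1 minus Eif4ebp2 was -0.29, -0.54 and -0.15 in WT and 0.99, 0.76 and 1.22 in SRSF3HKO. This shift of 1.31 was likewise chosen after the values were seen and not tested. The eIF4E carrier gene Eif4enif1 changed by 0.36 ± 0.24 (limma adjusted p = 0.362).

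Eif4a3, a helicase that anchors the exon junction complex on spliced mRNA rather than an initiation factor, also carries an Eif symbol. Its levels were 8.65, 8.83 and 8.43 in WT and 9.64, 8.62 and 9.56 in SRSF3HKO, and the low SRSF3HKO replicate 2 lay within the WT range. The log2 change was 0.64 ± 0.29 (limma adjusted p = 0.193), and 0.96 without that array (limma adjusted p = 0.0114). With any other array left out the limma adjusted p was 0.289 to 0.412. Without SRSF3HKO replicate 2, 11.8% of all tested genes were called higher, against 6.85% with all arrays.

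**Figure D2:**
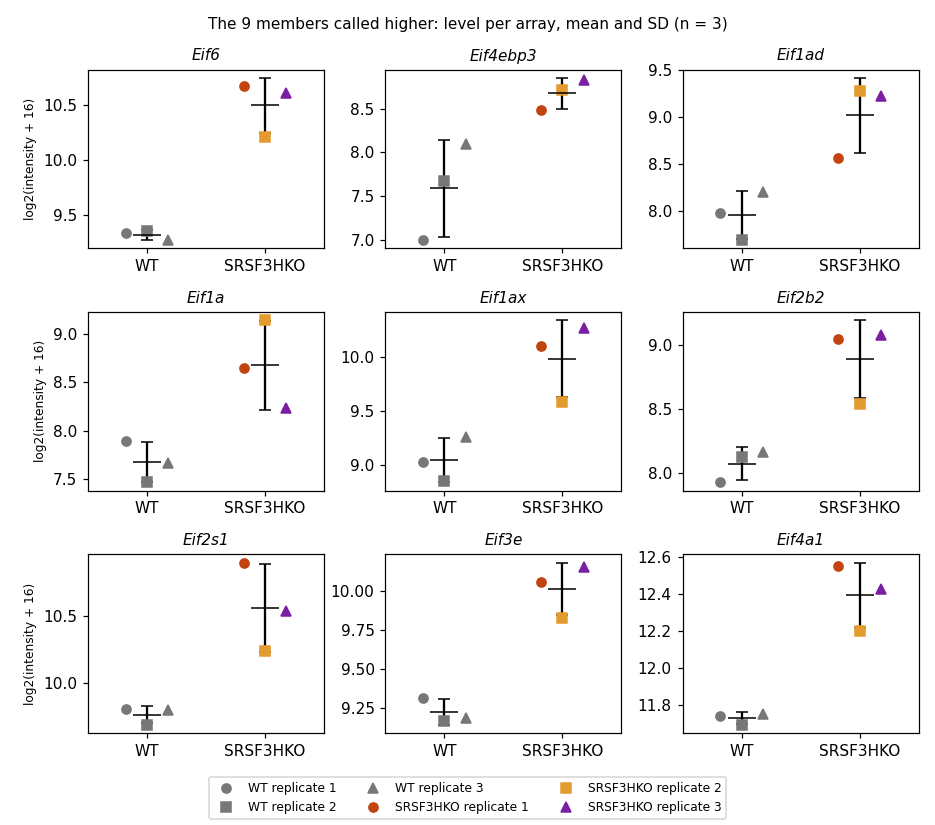
Level of each of the 9 members called higher on the log2(intensity + 16) scale, 1 panel per gene, with 1 point per array and the mean and SD of 3 arrays as bars; each vertical axis spans that gene's own range. In every panel the 3 SRSF3HKO arrays lie above the 3 WT arrays.

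The 3 SRSF3HKO arrays differed in how the members stood. SRSF3HKO replicate 2 was the lowest of the 3 for 27 of the 44 members and the highest for 15. SRSF3HKO replicates 1, 2 and 3 exceeded the highest WT array for 34, 28 and 32 members. The matching shares over all tested genes were not computed for single arrays, so these counts have no background to be read against. The median deviation from the WT mean was 0.56, 0.41 and 0.40 on the 3 SRSF3HKO arrays, against 0.11, 0.07 and 0.04 over all tested genes. For eIF2B the medians were 0.86, 0.12 and 0.88, and for eIF3 they were 0.69, 0.40 and 0.69. In eIF4F and its helpers the order differed, with 0.33, 0.32 and 0.03, while the 4E-binding group had 0.52, 0.61 and 0.64. Within the arrays with Y-linked signal the median change of the members was 0.43 and within those without it 0.41, against 0.07 and 0.05 over all tested genes.

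**Figure D3:**
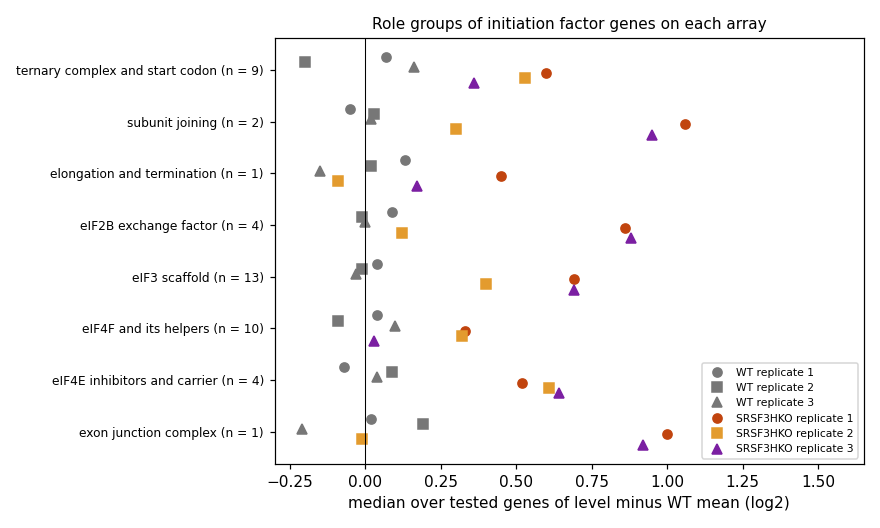
Median over the tested genes of each role group of the level minus the WT mean, on the log2 scale, with 1 point per array. SRSF3HKO replicates 1 and 3 lie together at 0.86 and 0.88 for eIF2B and at 0.69 for eIF3, with replicate 2 nearer to the WT arrays at 0.12 and 0.40.

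Single probe sets show how evenly a gene moved along its length. Of 620 member probe sets bright enough to test, 91 in 19 genes were higher and 1 was lower (limma adjusted p under 0.05), where 4.73% of all 157764 tested probe sets were higher and 4.32% lower. All 15 probe sets of Eif4a1 were called, with log2 changes of 0.61 to 1.20. Probe set 5571501, one of them, had WT intensities of 6520, 6450 and 6680 and SRSF3HKO intensities of 12300, 8820 and 10100. Of Eif6 8 of 9 were called, with changes of 0.98 to 1.41 over all 9. Probe set 5377806 of Eif6 went from 830, 827 and 640 to 2420, 1570 and 2230 (log2 change 1.41 ± 0.23, limma adjusted p = 0.00872). Eif1ax had 12 of 15 called, Eif3e 11 of 16, Eif1ad 8 of 11 and Eif3h 7 of 10. Eif4ebp3 had none of its 4 called, and its changes spread from 0.78 to 1.80. The lone probe set that fell was 5412260 of Eif4ebp2, from 582, 662 and 555 in WT to 303, 324 and 366 in SRSF3HKO (log2 change -0.83 ± 0.21, limma adjusted p = 0.0398). All 10 tested probe sets of Eif4ebp2 and all 12 of Eif4a2 had a negative log2 change. The count of 92 called probe sets fell to 4, 5 and 10 without WT replicates 1, 2 and 3, to 35 and 29 without SRSF3HKO replicates 1 and 3 and to 28 with the Y-linked covariate, and rose to 190 without SRSF3HKO replicate 2.

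**Figure D4:**
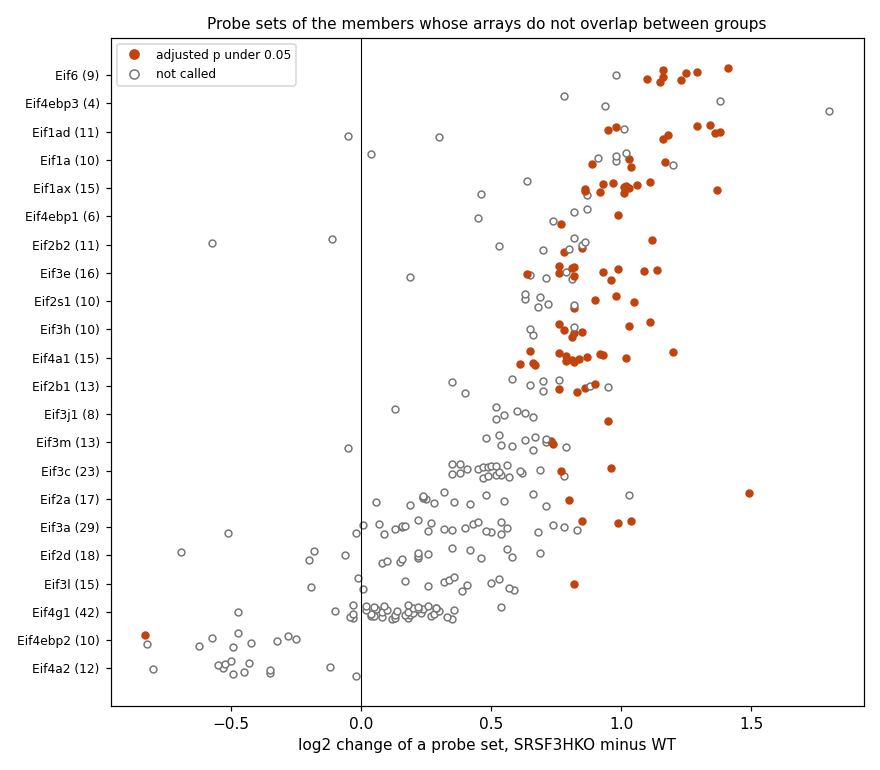
Log2 change, SRSF3HKO minus WT, of every tested probe set of the 22 members whose arrays did not overlap between the groups, ordered by the change of the gene, with the number of tested probe sets in brackets; filled points passed an adjusted p under 0.05. All 15 probe sets of Eif4a1 are filled and lie between 0.61 and 1.20, whereas all 10 of Eif4ebp2 and all 12 of Eif4a2 lie below 0.

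Since SRSF3 regulates splicing, the usage of single probe sets within their genes was compared as well. With limma's diffSplice, 4 of 618 member probe sets (of 44 genes) were called, 3 used less and 1 used more in SRSF3HKO. This share is about that over all 142800 probe sets in the test, of which 0.662% were called. The 4 belong to Eif2b2, Eif1ad, Eif4g1 and Eif2a. Probe set 5356257 of Eif2b2 was dim, with WT intensities of 42.3, 73.1 and 28.4 and SRSF3HKO intensities of 17.3, 34.5 and 26.4, and its usage changed by -1.29 (diffSplice adjusted p = 0.00616). Probe set 4785443 of Eif1ad had 231, 260 and 277 in WT and 145, 443 and 229 in SRSF3HKO, without following the rise of its gene (usage change -1.14, diffSplice adjusted p = 0.0311). Probe set 4928137 of Eif4g1 went from 81.6, 85.4 and 89.6 to 64.7, 48.0 and 60.9, with a usage change of -0.62 (diffSplice adjusted p = 0.0262). Probe set 5439280 of Eif2a went from 80.6, 44.0 and 36.0 to 219, 99.6 and 228, with a usage change of 1.06 (diffSplice adjusted p = 0.0217). A second test, limma on each array's probe set value minus the mean of the other probe sets of the gene, called none of these 4 (limma adjusted p = 0.240, 0.229, 0.330 and 0.303). It called 1 other, probe set 5387393 of Eif4enif1, which went from 379, 235 and 363 to 776, 957 and 558 (limma adjusted p = 0.0443 for the relative value). The share of all probe sets called by this second test is not given here. The diffSplice count was 2, 0 and 1 without WT replicates 1, 2 and 3, 1, 13 and 3 without SRSF3HKO replicates 1, 2 and 3 and 2 with the Y-linked covariate. Positions of the probe sets within the genes were not analysed here.

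Genes that act with the initiation factors were read from 6 lists holding 76 tested genes, of which 9 were higher (11.8%, against 6.85% of all tested genes) and 4 lower (5.26%, against 5.03%). On leaving out WT replicate 1, 2 or 3 the 13 calls fell to 4, 4 and 6, and they rose to 24 when SRSF3HKO replicate 2 was left out. The eIF2 kinase genes Eif2ak2, Eif2ak3 and Eif2ak4 did not pass, with log2 changes of -0.39 ± 0.35, 0.65 ± 0.38 and 0.47 ± 0.18 (limma adjusted p = 0.5, 0.291 and 0.127). Among 11 genes of eIF2 phosphorylation feedback and its targets, 4 rose and 1 fell. Ppp1r15a, which directs a phosphatase to eIF2 alpha, had WT levels of 6.07, 5.73 and 5.86 and SRSF3HKO levels of 7.30, 8.26 and 6.80 (log2 change 1.57 ± 0.35, limma adjusted p = 0.0266). Impact, whose product restrains the kinase encoded by Eif2ak4, rose from 6.69, 6.53 and 6.78 to 8.35, 8.79 and 8.05. The transcription factor gene Ddit3 rose by 1.24 and the asparagine synthetase gene Asns by 4.03, while Atf5 fell by 1.59 on the log2 scale. Atf4, the central target of eIF2 phosphorylation, changed by 0.42 ± 0.23 (limma adjusted p = 0.262).

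Of 15 cap and poly(A) binding partners, 1 rose and 1 fell. Pdcd4, whose product inhibits the eIF4A helicase, went from 10.71, 10.62 and 10.57 in WT to 8.32, 9.11 and 7.98 in SRSF3HKO (log2 change -2.16 ± 0.29, limma adjusted p = 0.00469). The poly(A)-binding protein gene Pabpc4 rose from 8.19, 7.86 and 8.23 to 9.38, 9.19 and 9.10 (log2 change 1.13 ± 0.20, limma adjusted p = 0.0122). Among 16 genes of mTOR and MNK input to eIF4, Ddit4, which codes for an mTOR inhibitor, rose by 2.18 ± 0.56, and Deptor, which codes for another, fell by 1.56 ± 0.28 (limma adjusted p = 0.0412 and 0.0144). Of 11 other initiation and reinitiation factors, Denr (0.84 ± 0.17) and Bzw2 (1.00 ± 0.24) rose, with limma adjusted p-values of 0.0211 and 0.0330, and none fell. Of 20 elongation and termination factors, the release factor gene Etf1 rose by 1.21 ± 0.21 and the elongation factor kinase gene Eef2k fell by 0.95 ± 0.18 (limma adjusted p = 0.0115 and 0.0165), and the list median was 0.17.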

How the data were processed

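The deposited values are linear intensities that the authors computed with PLIER in Affymetrix Expression Console, per the submitters' processing notes, with 1 column per array. Versions and the background step are not given in the sources used here. Of 229581 probe sets, 208397 had 1 annotated gene, 3965 had several and 17219 had none. Symbols were updated to RefSeq (2124 of 16299). Intensities were transformed as log2(value + 16), which understates changes of dim genes, and the median over a gene's probe sets gave its level. The tests kept features with a mean above the 90th percentile of 1046 olfactory, taste and vomeronasal receptor genes (a log2 level of 5.35 for genes, 5.63 for single probe sets).

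The genotypes were compared in limma 3.58.1 (lmFit, then eBayes with trend, in R 4.3.3). P-values were adjusted by Benjamini and Hochberg's method over all genes or probe sets, with a threshold of 0.05. Usage was tested with diffSplice in genes with at least 3 tested probe sets. On arrays simulated with noise drawn separately for each probe set, the gene test recovered known changes at its nominal error. Noise shared by the probe sets of a gene was not simulated, so the error of the gene test on the real arrays is not known from this. In the same simulation diffSplice called too many probe sets where those of a gene differed in spread, so each usage call is given with the second test. The Y-linked covariate was the mean level of Eif2s3y and Kdm5d. Alternatives were other pseudocounts, scalings, summaries, filters and variance models, a stricter threshold, the covariate, the symbols as listed, and leaving out each array.

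Genes named are the called members, the 5 members at each end of the ranking by change, and members with a usage call. Only 3 tested members had a negative change, so the lower end includes Eif5 and Eif3b at 0.03. A fixed set of core factors and up to 4 called genes per partner list are named as well. Further members, the eIF2 kinase genes and Atf4 were added to describe their groups, after their values were seen. The members and lists were chosen with earlier results of these data known. Tables were read with the data.table package (version 1.17.8), and figures drawn with Python 3.11.15, pandas 2.3.3 and matplotlib 3.10.9.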

Additional observations from a re-analysis of the deposited data

How the results depend on the processing

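The count of 9 members called became 5 with median centring, 4 with no filter on dim genes, 19 with array weights, 1 at an adjusted p under 0.01 and 1 with the Y-linked covariate, and ranged from 0 to 19 on leaving out 1 array at a time. The share of all tested genes called higher, 6.85% in the main fit, moved in the same order to 6.2%, 3.99%, 10.8%, 1.08% and 3.31%. On leaving out arrays this share ranged from 0.895% to 11.8%. No member was called lower in any alternative. The count of 92 member probe sets became 57 with no filter, 52 without the variance trend, 170 with array weights, 6 at an adjusted p under 0.01 and 28 with the Y-linked covariate, and ranged from 4 to 190 on leaving out arrays. The 4 usage calls became 7 with array weights, 1 at an adjusted p under 0.01, 2 with the Y-linked covariate and 1 with the per-array index, and ranged from 0 to 13. Shares over all probe sets in these alternatives are not given here. The 13 calls in the partner lists became 22 with array weights and 4 at an adjusted p under 0.01, and ranged from 4 to 24. The median log2 change of the members ranged from 0.33 to 0.45 on leaving out arrays.

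Of the 44 members tested, 8 changed sign in at least 1 alternative, and none of these 8 was called. Eif3b had -0.02 with median centring, -0.15 with array weights and -0.02 with the Y-linked covariate, and -0.15 to 0.15 on leaving out arrays. Eif5 had -0.02, -0.23 and -0.07 in the same order, and -0.32 to 0.22, but 0.29 with the mean over probe sets and 0.28 with median polish. On leaving out arrays Eif2s2 ranged from -0.04 to 0.19 and Eif2b5 from -0.07 to 0.00. Eif1b had -0.04 with quantile normalization, -0.02 with median centring, -0.04 without WT replicate 3 and -0.12 without SRSF3HKO replicate 3. Eif4b had -0.07 with the mean over probe sets, -0.06 with array weights, -0.03 with the Y-linked covariate and -0.15 without SRSF3HKO replicate 2. Eif4e3 had -0.02 with median polish and -0.03 without SRSF3HKO replicate 1, and Eif4h had -0.06 with array weights and -0.08 without SRSF3HKO replicate 2. The cause of these shifts was not tested.

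Of the 9 members called, Eif6 kept its call in all 11 alternatives run gene by gene with every array kept, Eif1ad and Eif3e in 10, Eif1a, Eif1ax and Eif4a1 in 9, Eif2s1 in 8, Eif2b2 in 5 and Eif4ebp3 in 4. The Y-linked covariate ended the call of the 8 members other than Eif6 (adjusted p 0.058 to 0.0952). No paired analysis was possible because the labels give no replicate number shared between the genotypes.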
